A study of Salmo salar with 60 samples.

Results

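Gene expression in the distal intestine was compared between Atlantic salmon of 2 tanks that had gone through the same feeding trial. The 59 fish compared, of 60 arrays in all, were chosen by their titles: 29 fish were labelled tank 1 and 30 were labelled tank 2. The array titled tank 0 was left out because it names neither tank. Both tanks received the same diets, so tank was not a treatment, and the comparison asked how far the 2 groups of fish differed once the sampling day had been taken out.

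All fish were of the Sunndalsøra breed and were kept in seawater. Fish sampled on day 0 had been fed a reference diet with 563 g of fishmeal per kg, with fishmeal as its only protein source. Fish sampled on days 1, 2, 3, 5 and 7 had then been fed for that many days on a diet in which 200 g of hexane-extracted soybean meal per kg replaced part of the fishmeal. Day 0 was represented by 4 fish of tank 1 and 5 fish of tank 2, and every later day by 5 fish of each tank. Each array carried the Cy5-labelled RNA of 1 fish beside a Cy3-labelled reference pool, made from 18 fish of all sampling days. Only fish with content along the whole intestine had been sampled, per the labels. Fish of a tank were separate animals, and the tests treat fish as the replicates, except in a fit on the daily differences between tanks. The p-values of that fit measure the spread between days. Every other p-value here measures the spread between fish, and no test was set up to measure the spread between tanks. The labels do not state whether the tank numbers stand for the same tanks on every day.

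Soybean meal causes an inflammation of the distal intestine in salmonids, in which mucosal folds shorten, absorptive cells lose their vacuoles and immune cells enter the lamina propria. The distal intestine takes up proteins and other macromolecules and carries much of the gut's immune tissue. Fish that share a tank share water, feeding and neighbours, which is why feeding trials use duplicate tanks. Probes of the array were identified in the files by column and row only, so no probe is paired with a gene here. The tissue could therefore not be checked against marker genes, and results are given for probes.

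The arrays of both tanks had similar signal. The median background-corrected Cy5 signal of an array was 74.2 ± 13.2 (SD, n = 29) in tank 1 and 78.9 ± 16.4 (SD, n = 30) in tank 2, in scanner units. With day taken out, tank 2 was 4.83 higher with a standard error of 3.71 (permutation p = 0.2, two-sided, tank labels permuted within days, adjusted p = 0.535 over 4 measures). The median Cy3 signal, which comes from the reference pool, was 72.6 ± 8.70 in tank 1 and 74.9 ± 10.8 in tank 2 (permutation p = 0.401, adjusted p = 0.535). The log2 ratio of the 2 medians differed by 0.05 (permutation p = 0.587, adjusted p = 0.587). The spread of log ratios within an array, as a scaled median absolute deviation, was 0.357 ± 0.0286 in tank 1 and 0.350 ± 0.0281 in tank 2 (permutation p = 0.336, adjusted p = 0.535). The arrays lay on 15 slides of 4, of which 14 held fish of both tanks and 1 held tank 1 only. Of these slides, 7 held 2 fish of each tank, while 4 held 3 fish of tank 2 with 1 of tank 1 and 2 held the reverse. Slide was therefore partly aligned with tank. With slide taken out as well, the differences of the 4 measures were 4.98 for Cy5, 0.461 for Cy3, 0.08 for the log2 ratio of medians and -0.0062 for the spread, with adjusted permutation p-values of 0.588, 0.817, 0.588 and 0.588.

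No probe differed between the tanks at the threshold used. Log2(Cy5/Cy3) was fitted with limma on day and tank over 43627 probes, and 0 probes (0%) had a Benjamini-Hochberg adjusted p under 0.05. The smallest adjusted p was 0.704, for probe C089R161. Before adjustment, 1939 probes (4.44%) had a limma p under 0.05, and of these 1024 (2.35%) were higher and 915 (2.1%) lower in tank 2. For 43627 probes without any difference, 2181 would be counted on average. The count lay above that number in some other fits and below it in others, with 0 probes called after adjustment in each. It was 2338 without day 0, 2336 with position as a fixed block and 2779 with the 6 daily differences as the units. Without replicate 2 of day 7 in tank 2 it was 2924, and without slide 3, which held that fish, 3294. It was 1408 without day 5 and 1376 without slide 14. With slide as a fixed block, limma again called 0 probes, with 1390 at an unadjusted p under 0.05. With an offset of 50 added to both channels, which shrinks the differences of dim probes, the estimates were small as well as uncertain. The median absolute difference between tanks was 0.06 on the log2 scale, and the 90th and 99th percentiles were 0.16 and 0.35. For the 16234 probes with a mean signal above 200 scanner units, these values were 0.07, 0.20 and 0.44. Over all probes, the standard error of the median probe was 0.08. The standard deviation between fish, with day and tank taken out, was 0.31 for the median probe. Tank 2 was the higher one for 50.3% of probes, and the median signed difference was 0.00061. Normalization within arrays by loess centres the log ratios of each array, so both values follow largely from the processing. They cannot show whether all probes shifted together between the tanks.

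**Figure D1:**
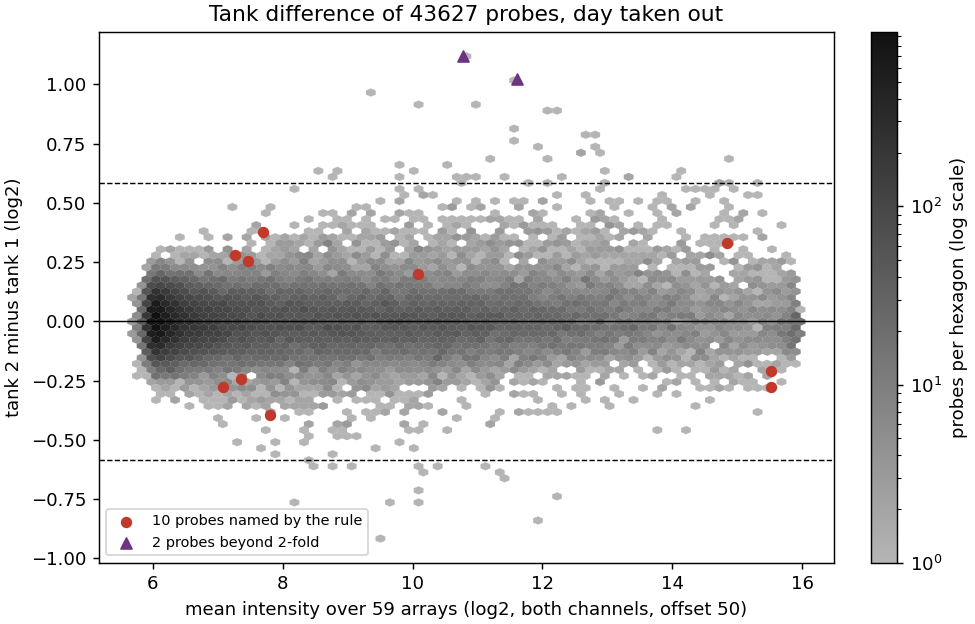
Difference between tank 2 and tank 1 (log2, y axis) against mean intensity over both channels (log2, x axis) for 43627 probes, with darker hexagons for more probes, dashed lines at 1.5-fold, red points for the 10 probes named by a rule and purple triangles for the 2 probes beyond 2-fold. The median signed difference over all probes is 0.00061, as normalization within arrays centres the log ratios, and 57 probes lie beyond the dashed lines.

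The share of probes with an unadjusted p under 0.05 hardly moved with signal. With probes split by mean intensity into 4 equal sets, it was 4.60% in the dimmest set, 4.97% and 4.31% in the middle sets and 3.90% in the brightest. Sizes moved with signal in the other direction, from a median absolute difference of 0.05 in the dimmest set to 0.07 in the brightest. An offset of 50 added to both channels shrinks the log ratio of dim probes, and for 43.8% of probes loss of all signal would move it by less than 2-fold. Dim probes are therefore measured only weakly here.

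A bound on the tank difference was read from each probe's 95% confidence interval, without adjustment over probes. It was taken mainly from the 16234 bright probes, those with a mean signal above 200 scanner units. The interval lay within 1.5-fold in either direction for 93.2% of the bright probes and within 2-fold for 98.9%. The interval of the median bright probe reached 0.19 to either side on the log2 scale. Without the offset these shares were 91.3% and 98.3%. With slide as a fixed block they were 94.3% and 99.1%. Over all 43627 probes the interval lay within 1.5-fold for 97.2% with the offset but for only 55.0% without it, so the bounds hold for bright probes and not for dim ones.

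**Figure D2:**
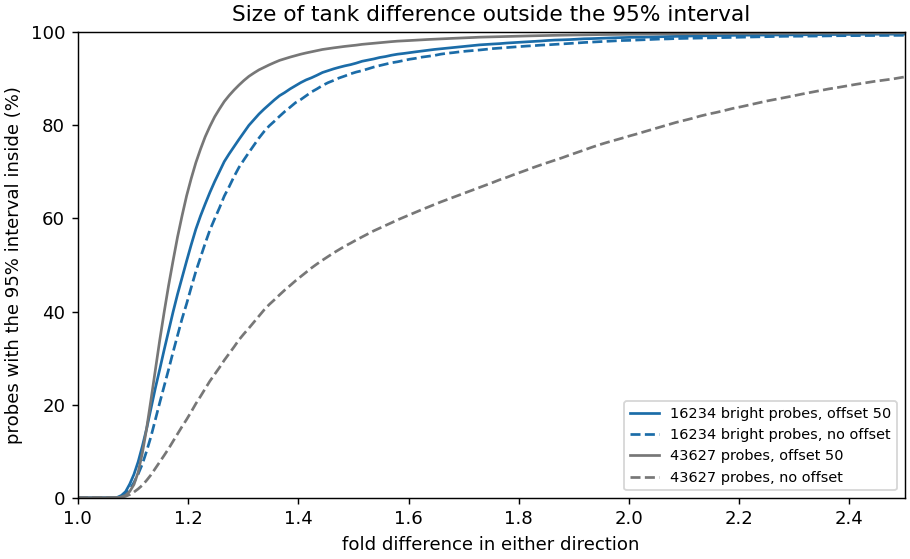
Percentage of probes (y axis) whose 95% confidence interval of the tank difference lies inside a given fold difference in either direction (x axis), for 16234 bright probes (blue) and all 43627 probes (grey), with an offset of 50 (solid) and without one (dashed). At 1.5-fold the bright probes stand at 93.2% and 91.3%, and all probes at 97.2% and 55.0%.

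Single days gave the same count. In a model with 1 mean for each day and tank, limma called 0 probes (0%) between tanks on each of days 0, 1, 2, 3, 5 and 7 after adjustment. The smallest adjusted p was 0.289, on day 3. On day 0, when all fish had eaten only the fishmeal diet, limma counted 1139 probes (2.61%) at an unadjusted p under 0.05. It counted 2416 (5.54%) on day 1, 2354 (5.4%) on day 2 and 1629 (3.73%) on day 3. There were 2960 (6.78%) on day 5 and 1079 (2.47%) on day 7. Day 5 thus had the highest count and day 7 the lowest. The number of probes with an estimated difference over 2-fold followed a similar order. Day 5 had 381 such probes and day 1 had 252, days 3 and 2 had 89 and 81, and days 0 and 7 had 50 and 20.

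Fish of different days are separate animals, so a tank difference that lasted, and was large beside the spread between fish, would recur across days. Over 15 pairs of days, the tank differences of all probes correlated from -0.14 to 0.34, with a median of 0.0023 and 8 of the 15 pairs above 0. For bright probes the correlations ran from -0.24 to 0.49, again with 8 pairs above 0. The highest was between days 1 and 5, and the next, 0.20 over all probes, between days 2 and 5. Day 0 correlated with the fed days from -0.04 to 0.03 over all probes. These are correlations across probes, which are not independent replicates, and the days compared share 2 to 6 slides and the reference pool. The standard error of a daily difference was 0.21 on day 0 and 0.20 on day 1 for the median probe. The median absolute difference over all days was only 0.06. Correlations near 0 therefore cannot show whether small tank differences lasted. In sign, 829 probes were higher in tank 2 on all 6 days and 666 were lower on all 6 days. Together they made up 3.43% of probes, where signs drawn independently for each day would give 3.13%. Their median absolute difference was 0.16 on the log2 scale.

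The share of the whole variation that lay between tanks was also close to that of an unrelated label. With day taken out, tanks held 2.03% of the variation over all probes, where a label unrelated to expression holds 1.89% on average (permutation p = 0.272, one-sided, tank labels permuted within days). With slide taken out as well the tanks held 1.93%, and an unrelated label 2.56% (permutation p = 0.799). Within single days, a test chosen after the other results were seen, tanks held 15.1% of the variation on day 5 and 13.2% on day 1, where an unrelated label holds 11.1%. The exact permutation p was 0.119 on day 5 and 0.190 on day 1, and both became 0.571 after adjustment over the 6 days. On days 2 and 3 the shares were 9.67% and 10.3% (exact permutation p = 0.595 and 0.611), below that of an unrelated label. On day 7 the share was 5.60% (exact permutation p = 0.984), and on day 0 it was 7.41% against 12.5% for an unrelated label (exact permutation p = 0.992). The smallest p that the splits of a single day allow is 0.00794.

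The first principal component of the 59 arrays, which held 26.9% of the variation, did not separate the tanks. Its scores ran from -115 to 40.5 in tank 1, with a median of 20.3, and from -92.3 to 49.7 in tank 2, with a median of 23.0. The ranges overlapped almost completely and the medians lay close together. The means were -6.96 ± 48.2 (SD, n = 29) and 6.73 ± 34.8 (SD, n = 30). With day taken out, tank 2 scored 13.7 higher with a standard error of 11.1 (permutation p = 0.224, adjusted p = 0.378 over 3 components). With slide taken out as well the difference was 5.77 (permutation p = 0.650). Very low scores, below -60, were found in 6 fish of tank 1 and 2 fish of tank 2, a limit set after the scores were seen, and 1 fish of day 0 was among them in each tank. By day, the tank means stood furthest apart on day 5, at -40.0 ± 39.9 in tank 1 and -0.60 ± 35.5 in tank 2 (n = 5 each), and on day 1, at -7.33 ± 52.0 and 21.7 ± 11. On day 0 they were 0.36 ± 60.2 (n = 4) and 0.37 ± 43.4 (n = 5). Components 2 and 3 differed by 5.36 and 3.94 between the tanks (permutation p = 0.258 and 0.378, adjusted p = 0.378 for both).

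**Figure D3:**
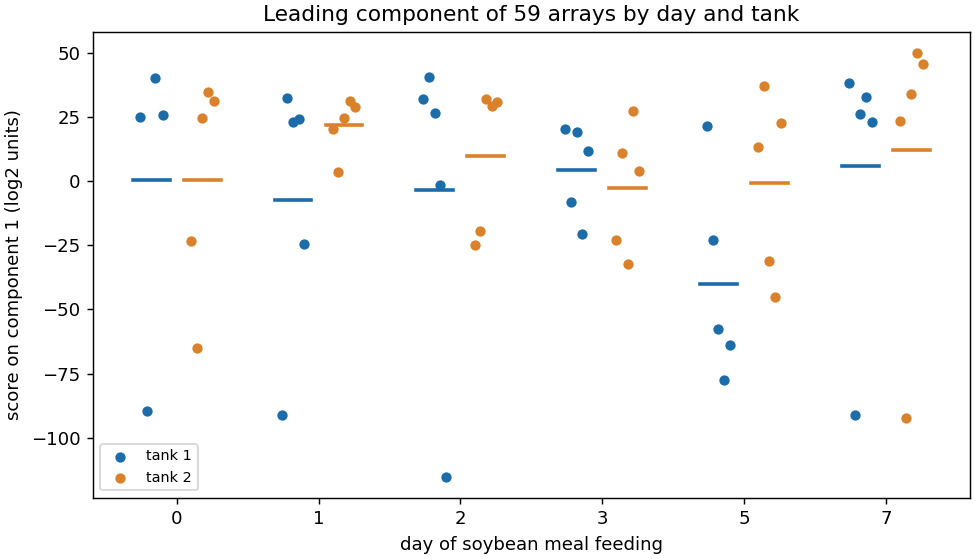
Score of each fish on the first principal component (y axis) by day of feeding (x axis) for tank 1 (blue) and tank 2 (orange), with bars at the mean of each day and tank. Tank 1 has 6 fish below -60 and tank 2 has 2, and the tank means lie furthest apart on day 5, at -40.0 and -0.60.

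The estimated tank differences over all days followed this component, though not those of every single day. Across all probes, the difference between tanks over all days correlated at 0.53 with each probe's correlation to the component 1 score, and at 0.64 across bright probes. For bright probes the same relation was 0.65 on day 5 and 0.54 on day 1. Days 2 and 7 gave 0.28 and 0.21, and days 0 and 3 gave -0.01 and -0.19. Both quantities come from the same fish, and any gap in mean score between the tanks by itself moves such a correlation away from 0. These values are therefore descriptions and carry no test. With the component 1 score as a covariate, limma called 0 probes, with 1948 at an unadjusted p under 0.05.

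On average, fish of tank 1 lay somewhat further from the others of their day and tank, though the medians were close. The distance of a fish from the mean of its day and tank, as the root mean square over all probes and scaled for group size, was 0.400 ± 0.0956 (SD, n = 29) in tank 1 and 0.367 ± 0.0633 (SD, n = 30) in tank 2, on the log2 scale. It ran from 0.325 to 0.678 in tank 1, with a median of 0.366, and from 0.298 to 0.635 in tank 2, with a median of 0.356, so the tanks overlapped over most of their range. The largest distances in tank 1 were 0.678 for replicate 10 of day 2 and 0.642 for replicate 7 of day 7. Both fish scored below -60 on component 1, as did replicate 2 of day 7 in tank 2, at a distance of 0.635. The mean distance was smaller in tank 2 on each of the 6 days. With day taken out, the difference of -0.03 did not pass the test (permutation p = 0.121, two-sided, standard error 0.02). Without replicate 2 of day 7 in tank 2 it was -0.05 (permutation p = 0.0144). With each fish left out in turn it ran from -0.0473 to -0.0185. In the authors' deposited table it was -0.04 (permutation p = 0.0247), and with slide taken out as well it was -0.02 (permutation p = 0.387), so the call depends on 1 fish and on the processing.

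With no probe past the threshold, the 5 smallest unadjusted p-values in each direction were taken among probes above the median intensity, which gave 10 probes. They were picked for this difference, so the values below describe them and support nothing. Their absolute differences ran from 0.20 to 0.39 on the log2 scale. The limma adjusted p was 0.955 for each of them, and the ranges of the tanks overlapped for every one.

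Among the 5 probes higher in tank 2, C009R089 was a moderately dim probe with a mean signal of 157. Its log2 ratio to the reference pool ran from -1.25 to 0.31 in tank 1, with a median of -0.22, and from -0.67 to 0.55 in tank 2, with a median of 0.0021. The lowest fish were those of tank 1, and 23 of 30 fish of tank 2 lay above the tank 1 median. The difference was 0.37 with a standard error of 0.10. By day, tank 2 was higher by 0.82 on day 5 and by 0.60 on day 2, but by only 0.08 on day 0 and 0.06 on day 3. With slide as a fixed block its difference was 0.28.

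Probe C124R096 was among the brighter probes of the array, with a mean signal of 29397. It ran from -1.39 to 0.18 in tank 1, with a median of -0.48, and from -0.97 to 0.48 in tank 2, with a median of -0.16. In tank 2, 25 of 30 fish lay above the tank 1 median. The difference was 0.33 with a standard error of 0.09, and 0.34 with slide as a fixed block. It was largest on day 2, at 0.70, and smallest on day 1, at 0.04. The Cy5 signal of this probe was above 65000 scanner units on 1 array, and 14 arrays gave it flag code 3, which has no key.

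Probe C218R044 had a mean signal of 127 and ran from -0.48 to 0.35 in tank 1, with a median of 0.11, and from -0.24 to 0.99 in tank 2, with a median of 0.33. Here the highest fish were those of tank 2, and 20 of 30 lay above the tank 1 median. Its difference was 0.25 with a standard error of 0.07. Unlike C009R089 and C124R096, it was larger on days 0 and 1, at 0.45 and 0.48, than on days 2, 3, 5 and 7, at 0.15, 0.03, 0.18 and 0.25. Probe C212R122 ran from -0.58 to 0.67 in tank 1 and from -0.30 to 1.04 in tank 2, with a difference of 0.28 and a standard error of 0.08. Probe C018R043, with a mean signal of 1035, ran from -0.70 to 0.15 in tank 1 and from -0.67 to 0.38 in tank 2, with a difference of 0.20 and a standard error of 0.06. The differences of C218R044, C212R122 and C018R043 were 0.24, 0.21 and 0.17 with slide as a fixed block. For both C212R122 and C018R043, 24 of 30 fish of tank 2 lay above the tank 1 median. All 5 of these probes were higher in tank 2 on each of the 6 days.

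Of the 5 probes lower in tank 2, the first was C003R079, with a mean signal of 46866. It ran from -0.49 to 0.38 in tank 1, with a median of -0.06, and from -1.23 to 0.17 in tank 2, with a median of -0.31. In tank 2, 24 of 30 fish lay below the tank 1 median. The difference was -0.28 with a standard error of 0.07, and -0.29 with slide as a fixed block. On the fed days the difference ran from -0.16 on day 2 to -0.41 on day 7, and it was close to 0 on day 0. The Cy5 signal of this probe was above 65000 scanner units, near the upper end of the scale, on 9 of 59 arrays.

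Probe C178R065, with a mean signal of 46912, lay near the upper end of the scale on many arrays. Its Cy5 signal was above 65000 on 36 of 59 arrays and its Cy3 signal on 11, and the median Cy5 signal was 65149.5 in tank 1 and 65190 in tank 2. Its log2 ratio ran from -0.37 to 0.55 in tank 1, with a median of -0.0065, and from -0.78 to 0.46 in tank 2, with a median of -0.16. The difference of -0.21, with a standard error of 0.06, was -0.19 with slide as a fixed block. At the upper end of the scale these Cy5 signals cannot show whether the tanks differed in Cy5. The part of saturation in it was not tested.

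Probe C057R043 had the largest absolute difference of the 10, -0.39 with a standard error of 0.11, and a mean signal of 174. It ran from -0.83 to 1.26 in tank 1, with a median of -0.11, and from -0.97 to 0.36 in tank 2, with a median of -0.35. The 10 fish of day 5 gave a difference of -0.93 and those of day 2 one of -0.75, while day 3 gave 0.04. With slide as a fixed block its difference was -0.27. Probe C099R085, with a mean signal of 85.3, ran from -0.54 to 0.73 in tank 1 and from -0.85 to 0.69 in tank 2, with a difference of -0.28 and a standard error of 0.08, and 26 of 30 fish of tank 2 lay below the tank 1 median. Without the offset the C099R085 difference was -0.45, and with slide as a fixed block -0.20. Probe C140R118, with a mean signal of 113, ran from -0.65 to 0.89 in tank 1 and from -0.49 to 0.29 in tank 2, with a difference of -0.25 and a standard error of 0.08, and -0.30 with slide as a fixed block. Of these 5 probes, C178R065 was lower in tank 2 on all 6 days and the others on 5 of 6. Before normalization, the median Cy5 signal of C057R043 was 161.5 in tank 1 and 159.75 in tank 2. It was 79 and 80.5 for C099R085, and 113 and 113.5 for C140R118. For these probes the difference thus showed in the normalized ratio and hardly in the Cy5 medians. For C003R079 the medians were 58540 and 47107.5.

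**Figure D4:**
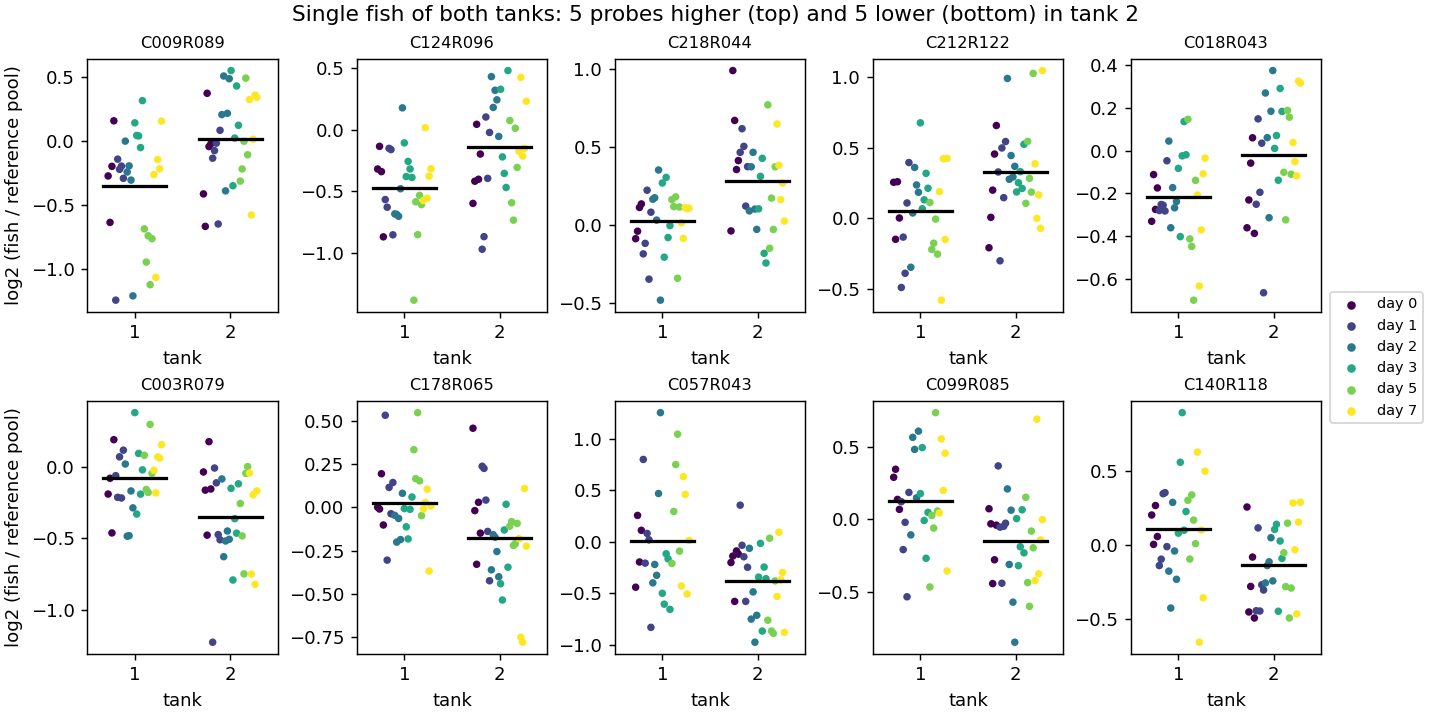
Log2 ratio of each fish to the reference pool (y axis) in tank 1 and tank 2 (x axis) for the 10 probes with the smallest unadjusted p in each direction among probes above the median intensity, with points coloured by day and bars at the tank means. The tanks overlap in every panel, and the fitted tank differences, with day taken out, are 0.20 to 0.39 in size.

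Probe C089R161, named because it had the smallest p of all probes, was too dim for that rule, with a mean signal of 37.2. It ran from -0.77 to 0.50 in tank 1, with a median of -0.05, and from -0.17 to 0.96 in tank 2, with a median of 0.33. In tank 2, 27 of 30 fish lay above the tank 1 median, and tank 2 was higher on each of the 6 days, by 0.22 to 0.55. The difference was 0.35 with a standard error of 0.08 (limma, unadjusted p = 1.61e-05, adjusted p = 0.704). Its median Cy5 signal was 35 in tank 1 and 46.8 in tank 2, both below the offset of 50. Without that offset its difference was 0.92, and it was 0.93 in the authors' deposited table. A fixed block for slide gave 0.32.

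The largest estimated differences were found in probes that varied strongly from fish to fish. The offset of 50 shrinks the log ratios of dim probes, and without it the dim probe C089R161 had a difference of 0.92. With the offset, 57 probes were estimated beyond 1.5-fold between the tanks, 40 higher and 17 lower in tank 2. Each of these 57 was a bright probe. Their standard deviation between fish, with day and tank taken out, ran from 0.82 to 2.69, with a median of 1.53. The median bright probe had 0.36, and the 90th percentile of bright probes was 0.66. Of the 57 probes, 15 (26.3%) had an unadjusted p under 0.05, against 3.81% of bright probes. A correlation with component 1 above 0.5 in size was found in 42 of them (73.7%), against 47.4% of bright probes. These probes were chosen for a large estimate. That choice by itself favours probes with a large spread between fish and raises the share with a small p. The contrasts with bright probes are therefore descriptions, and the 57 probes have no test of their own here.

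With the offset of 50, only 2 probes were estimated beyond 2-fold, and both are named because of that. Probe C022R090, with a mean signal of 1714, ran from -4.47 to 2.11 in tank 1, with a median of -0.67, and from -4.33 to 2.22 in tank 2, with a median of 0.41. The difference was 1.12 with a standard error of 0.41 and a 95% interval from 0.30 to 1.94, a 2.17-fold higher level in tank 2 (limma adjusted p = 0.955). Low fish were split off at a limit of -3, set for these 2 probes alone. A set of 7 fish lay between -4.47 and -3.81, with Cy5 signals of 39 to 99, and the next fish was at -2.15. The other 52 fish had a median Cy5 signal of 2495. Of the 7 low fish, 5 were of tank 1 and 2 of tank 2, and they came from days 1, 2, 3 and 5. The daily tank differences were 2.38, 2.08 and 1.87 for days 3, 5 and 1, 0.79 and 0.07 for days 0 and 7, and -0.52 for day 2. None of the 7 low fish scored below -60 on component 1.

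Probe C104R106, with a mean signal of 3070, ran from -6.36 to 1.98 in tank 1, with a median of 0.53, and from -5.91 to 2.17 in tank 2, with a median of 0.91. The difference was 1.02 with a standard error of 0.61, and its 95% interval from -0.21 to 2.25 held 0. A set of 9 fish lay between -6.36 and -4.20, with Cy5 signals of 12.5 to 244, and the next fish was at -2.16. Of these 9 fish, 7 were of tank 1 and 2 of tank 2, and 3 of the 7 were fish of day 5. The tank difference was 3.27 on day 5 and 1.77 on day 1, against -0.08 on day 3. Of the 9 low fish, 8 scored below -60 on component 1 and the other one at -57.6. Over all fish, the log2 ratio correlated with the component 1 score at 0.97 for C104R106 and at 0.22 for C022R090. Both probes were picked for a large estimate, so the counts of low fish by tank are no support for a difference. Just 1 fish, replicate 8 of day 5 in tank 1, was low for both C022R090 and C104R106. With slide as a fixed block the differences were 1.41 for C022R090 and 0.55 for C104R106.

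**Figure D5:**
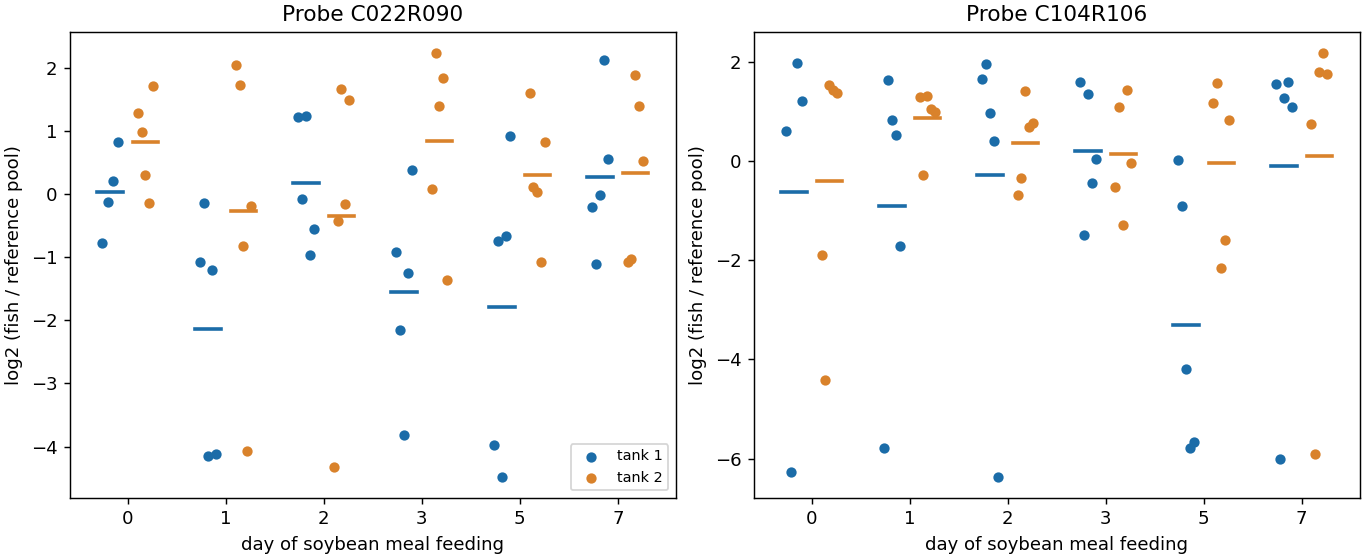
Log2 ratio of each fish to the reference pool (y axis) by day of feeding (x axis) for probes C022R090 and C104R106, with tank 1 in blue, tank 2 in orange and bars at the mean of each day and tank. C022R090 has 7 fish at -3.81 or below and C104R106 has 9 fish at -4.20 or below, with 5 and 7 of them in tank 1.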

How the data were processed

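Per the labels' protocols, RNA of single fish was labelled with Cy5 and the reference pool with Cy3, without dye swaps. The authors deposited intensity values for both channels, given per the file headers as background-corrected median signals (correction method: not given in the sources used here). Of 45220 spots per array, the 1531 control spots and 62 further probes with flag code 1 on some array were left out, while codes 2 and 3, which have no key, were kept. A deposited table by the authors, with log2 values centred on each probe, served as an alternative; 1 of its columns, that of the array titled tank 0, was not used.

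Values below 0 were set to 0, 50 was added to both channels and log2(Cy5/Cy3) was normalized within arrays by loess. Tank 2 minus tank 1 was fitted with day as a factor in limma 3.58.1 under R 4.3.3 (lmFit, eBayes, Benjamini-Hochberg over 43627 probes). Single values were tested by 100000 permutations of tank labels within days, or by all splits of a day's fish. The fit was also run on residuals of these arrays, shuffled between fish, with differences added to some probes. No result given here rests on that run. Probes were named by the largest change among those past the threshold or, with fewer than 5, by the 5 smallest p-values in each direction among probes above the median intensity. Marker gene lists could not be used because probes carry no gene names. The members, lists and rules were chosen with earlier results of these data known. Replicate numbers do not pair fish of the 2 tanks, which share only 1 number. On every day tank 2 held the lower replicate numbers and tank 1 the higher ones. Anything that follows these numbers therefore cannot be told apart from tank. The number of arrays limits the precision.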

Additional observations from a re-analysis of the deposited data

Results flagged for a closer look

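Fish that stood apart within their day and tank were looked for in 60 sets of values, namely 4 measures of the arrays and component 1 in 12 groups of 4 or 5 fish. The number set for chance was about 3 sets, and 7 held such a fish, 5 in tank 1 and 2 in tank 2. The sets are not independent, as replicate 7 of day 0 in tank 1 stood apart in both Cy5 and component 1. Component 1 scores also have a long low tail over all fish. The count is thus a description and carries no test. On component 1, replicate 7 of day 0 in tank 1 scored -89.4 while its nearest neighbour scored 24.9. Replicate 10 of day 2 in tank 1 scored -115 beside -1.53. On day 7, replicate 7 in tank 1 scored -91.2 beside 23.1, and replicate 2 in tank 2 scored -92.3 beside 23.2. In Cy5, the array median was 97 for replicate 7 of day 0 in tank 1, above the nearest value of 64.5, and 55.5 for replicate 4 of day 7 in tank 2, below the nearest value of 77. The log2 ratio of the median signals was -0.24 in replicate 6 of day 7 in tank 1, below the nearest value of 0.14.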

How the results depend on the processing

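Limma called 0 probes between the tanks in each of 36 other separate fits and with each of the 59 fish left out in turn, with a smallest adjusted p of 0.143, when slide 15 was left out. These fits covered background, offset, centring, the authors' table, dim probes, slide, position, the replicate block, day, spread estimate, array weights, component 1 and left-out days and slides. The replicate block, a random one because the tanks share 1 number, gave 0 calls and 1628 probes at an unadjusted p under 0.05. That unadjusted count was 2924 without replicate 2 of day 7 in tank 2, 3294 without slide 3 and 854 over probes above the median intensity, where fewer probes were tested. The share of bright probes bounded within 1.5-fold was 91.3% without the offset, 91.2% in the authors' table and 94.3% with slide, and it was 94.4% for probes above the median intensity and 97.2% for all probes. That last share depended on the offset, which shrinks the log ratios of dim probes. Over all probes it was only 55.0% without the offset and 55.1% in the authors' table. The distance of fish from their group differed by -0.0408 in the authors' table, and by -0.0473 to -0.0185 with single fish left out. The 13 named probes kept their sign in all 897 values computed, and their lowest adjusted p was 0.236. They were picked from these same fish, and most of these fits share nearly all fish with the first. Kept signs are therefore no support for a difference. The component 2 difference was -0.32 with slide taken out. The cause of these shifts was not tested.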

Other observations

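The array titled tank 0, a fish of day 1 that entered no comparison, had a median Cy5 signal of 85 and a median Cy3 signal of 77.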
